A study of Homo sapiens with 16 samples.

Results

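Gene bodies longer than 200 kb were followed in newly made RNA of HAP1 cells through inhibition of each of the nuclear RNA polymerases. The members were the rows of the deposited gene-body table whose end minus start exceeded 200 kb, apart from rows with a symbol starting in ZNF or SLC and CUBN, which left out 5 rows. The rule found 232 of 9944 gene bodies, or 2.33% of the rows, and no measured value entered it. The members covered 71.7 Mb, which was 19.6% of the span of all rows, on 22 chromosomes. Their spans ran from 201 kb (SCAI) to 1228 kb (GALNTL6) with a median of 262 kb. Of them, 146 spanned 200 to 300 kb, 57 spanned 300 to 400 kb and 29 were longer.

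The assay was TT-chem-seq, in which cells take up 4-thiouridine (4-SU), and the RNA that contains it is biotinylated, captured and sequenced. All cells were wild-type HAP1, a near-haploid line derived from KBM-7, and 16 libraries formed 8 groups of 2. One group received neither 4-SU nor an inhibitor (the no 4-SU group), and the untreated group received 1 mM 4-SU for 30 min and no inhibitor. The 6 other groups received the same labelling during the last 30 min of 1 h or 5 h with 1 µM BMH-21, an inhibitor of RNA polymerase I, with 100 µM DRB, an inhibitor of RNA polymerase II elongation, or with 20 µM ML-60218, labelled as an inhibitor of RNA polymerase III. Replicates are called biological in the labels, with no word on separate cultures, and the spread that the p-values rest on may therefore be technical. The inhibitor groups share the same untreated libraries. A level below 100% can come from fewer cells or from less labelled RNA per cell, which cannot be told apart here.

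Long genes are read by RNA polymerase II over hours, so that a polymerase released from the promoter before an inhibitor acts is still inside the gene when short genes have been cleared. DRB inhibits CDK9, the kinase of P-TEFb, which lets promoter-proximal polymerases enter productive elongation, while polymerases already elongating are known to run on. Many very long human genes encode synaptic adhesion proteins, axon guidance factors and their receptors, ion channels and large scaffolds, and such genes are expressed most strongly in brain.

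The start of a long gene is where DRB acts on it, and 4 members with contrasting responses are shown by the 250 bases before their RefSeq start (GRCh38.p14). EFNA5 fell furthest after 1 h among the members with over 1000 untreated tags, STK39 and COL19A1 fell furthest between 1 h and 5 h, and PARD3B is the longest member with over 200 untreated tags. The sequences run 5′ to 3′ on the strand of the gene, and capitals mark the GC box GGGCGG on either strand (CCGCCC on the other); matches may overlap. The windows are chr5:107670938-107671187 on the minus strand for EFNA5, chr2:168247596-168247845 on the minus strand for STK39, chr6:69866306-69866555 on the plus strand for COL19A1 and chr2:204545225-204545474 on the plus strand for PARD3B.
EFNA5: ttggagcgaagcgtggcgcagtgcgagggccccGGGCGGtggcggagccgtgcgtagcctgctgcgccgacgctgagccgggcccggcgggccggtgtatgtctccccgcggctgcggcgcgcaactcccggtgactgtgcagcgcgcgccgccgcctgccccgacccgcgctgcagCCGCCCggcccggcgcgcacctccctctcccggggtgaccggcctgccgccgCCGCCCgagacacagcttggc
STK39: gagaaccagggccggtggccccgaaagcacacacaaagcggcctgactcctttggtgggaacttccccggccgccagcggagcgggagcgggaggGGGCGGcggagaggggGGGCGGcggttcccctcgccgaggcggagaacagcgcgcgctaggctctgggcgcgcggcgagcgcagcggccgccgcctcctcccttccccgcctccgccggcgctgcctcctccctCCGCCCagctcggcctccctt
COL19A1: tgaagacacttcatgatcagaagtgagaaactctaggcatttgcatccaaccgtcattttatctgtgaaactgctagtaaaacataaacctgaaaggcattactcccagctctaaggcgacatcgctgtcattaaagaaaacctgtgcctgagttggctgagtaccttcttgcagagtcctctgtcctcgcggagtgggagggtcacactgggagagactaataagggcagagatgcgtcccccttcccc
PARD3B: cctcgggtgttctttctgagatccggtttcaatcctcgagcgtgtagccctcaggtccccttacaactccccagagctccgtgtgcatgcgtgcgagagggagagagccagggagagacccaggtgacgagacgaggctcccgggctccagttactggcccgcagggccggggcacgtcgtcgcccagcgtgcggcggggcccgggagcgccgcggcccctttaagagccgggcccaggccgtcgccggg
The EFNA5 and STK39 windows hold 3 GC boxes each and are 79.6% and 76.4% G or C. The COL19A1 window, at 48.4% G or C, and the PARD3B window, at 69.6%, hold none of the GC box, TATAAA or CCAAT on either strand. Of 191 members matched to RefSeq, 108 had a promoter in the table used here. The GC box was in 58 of those 108 windows (53.7%), against 42.6% of 35116 windows of the same length. TATAAA was in 8 (7.41%, against 10.7% of all windows) and CCAAT in 30 (27.8%, against 32%). These matches describe letters and show no binding, and their relation to the DRB responses was not tested. For 94 members the deposited gene body started within 1000 bases of the RefSeq start. The STK39 gene body starts 546 bases upstream of it, so the STK39 window lies inside the deposited gene body.

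Values are sequence tags (aligned reads, recovered in steps of 0.5 from deposited values scaled to 10000000 tags a library, here called normalised tags) and levels, which are the spike-in-scaled value as a percentage of its value in the equally numbered untreated library. Libraries held 14083584 to 93919776 tags in all, of which 55845.5 to 6059928.5 fell in gene bodies. The smallest gene-body totals were those of DRB 5 h, at 65600 and 55845.5 tags. Members took 5.12% and 5.27% of the gene-body tags in untreated cells. That share was 9.51% and 9.28% after 1 h of DRB, above every other library, and 4.38% and 4.2% after 5 h. It lay between 4.88% and 5.61% in the BMH-21 and ML-60218 libraries. Of 20 blood-lineage marker genes, which mark the lineage of KBM-7, 12 have a row and 10 of these held under 50 untreated tags, among them SPI1 and GATA1. CD33 and CD3E held none, while ITGA2B held 67 and 157.5 in the 2 untreated libraries and KIT 56 and 69. The summed level of the 12 was 1.42 and 2.20 normalised tags per kb.

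The members differed widely in untreated output. Pooled over both untreated libraries they held 3 to 7002.5 tags, with a median of 111.75. Only 142 reached 50 tags and 99 reached 200, so medians below are over the 142 unless stated. Uncharacterised names accounted for 54 members, and 10 of those reached 50 tags. Per length, the densest members were TNS3, a focal adhesion protein, with 22.8 tags per kb, ZMIZ1, a transcriptional coactivator, with 22.8, VAV2, an exchange factor for small GTPases, with 22.1, TBL1X, a corepressor subunit, with 19.9, and GRB10, an adaptor of the insulin receptor, with 16.7. The longest were sparse, with 0.0464 tags per kb for GALNTL6, 1.07 for PARD3B, a cell polarity scaffold, and 0.371 for EPHA6, an ephrin receptor.

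Without 4-SU the median level was 2.1% ± 1.7 of untreated (SD, n = 2), against 1.4% for all 3932 gene bodies with 50 tags. limma called 159 of 232 members lower and none higher on the spike-in scale, where 84.5% of all rows tested were lower. Relative to typical mRNA the split turned to 130 higher and 30 lower, with 21.8% of all rows higher and 19.5% lower. ZMIZ1 held 110 and 68 tags without 4-SU against 1728 and 3908.5 in untreated cells, a log2 difference of -7.55 ± 0.43 (SE, limma adjusted p = 1.28e-13), the largest fall among members that the naming rule takes. TNS3 (-7.05), VAV2 (-7.04), TBL1X (-6.93), TRERF1 (-6.71) and GRB10 (-6.69) followed, and all but TRERF1 were among the densest members named above. In the 58 members with the lowest untreated density the 2 no 4-SU libraries held a median of 5.27 and 29.3 normalised tags per Mb, and the untreated libraries held 2.88 and 3.98. In the 58 with the highest density the same medians were 32.6 and 58.2 without 4-SU against 468 and 530 in untreated cells. Before spike-in scaling, the sparsest 58 thus held fewer normalised tags per Mb in untreated libraries than in those without 4-SU.

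**Figure D1:**
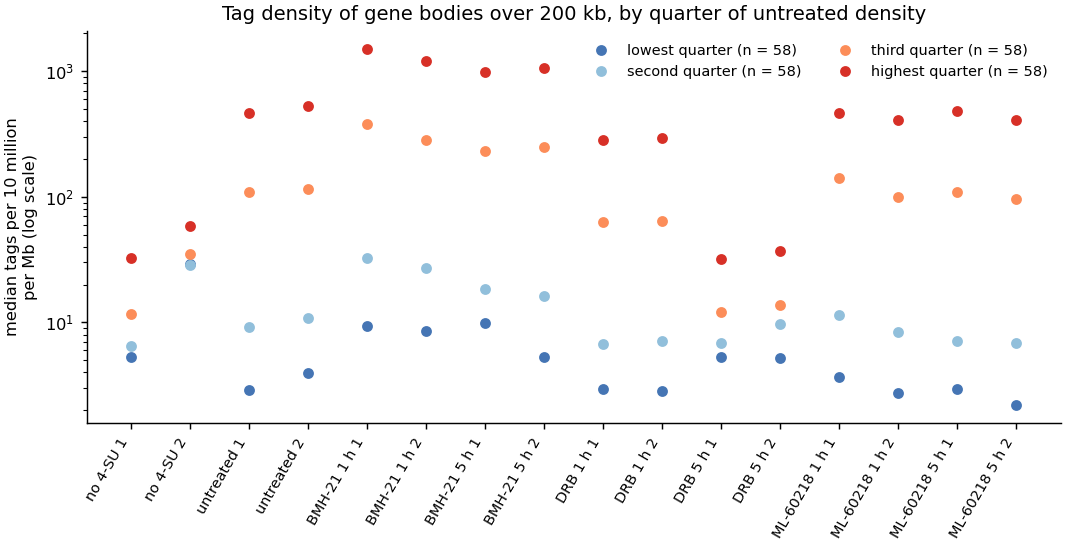
Median normalised tags per Mb (log axis, before spike-in scaling) of the 232 gene bodies over 200 kb in each of the 16 libraries, in 4 groups of 58 by untreated density. The densest group falls from 468 and 530 in untreated cells to 32.2 and 36.8 after 5 h of DRB, against 32.6 and 58.2 without 4-SU, while the sparsest group stays between 2.19 and 9.89 outside the no 4-SU libraries.

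After 1 h of DRB the long gene bodies held more labelled RNA, relative to untreated, than other gene bodies. Their median level was 59.7% ± 6.3 of untreated (SD, n = 2), with 55.3% and 64.2% in the 2 libraries. Scaled to typical mRNA in place of the spike-in, the median was 184.1%, above untreated. Gene bodies of 100 to 200 kb stood at 50.5% ± 6.0 (353 rows), gene bodies under 10 kb at 9.64% ± 1.91 (742 rows) and all gene bodies at 24.6% ± 2.1. The libraries of the classes under 10 kb and over 200 kb did not overlap, while those of 100 to 200 kb (46.3% and 54.7%) lay below the members within each library. Among the members length made little difference, with 57.0% ± 8.6 at 200 to 300 kb (86 members), 61.9% ± 4.6 at 300 to 400 kb (35) and 61.0% ± 3.3 above 400 kb (21). Across the 142 members, which share the same libraries, Spearman's rank correlation of level and span was 0.144, a description with no test. Both DRB libraries were below untreated for 127 of the 142 and above it for 4, and 27 were below 50% in both. Of all 3932 gene bodies with 50 tags, 3740 were below untreated in both and 68 above it. By the mean of both libraries, 48 of the 142 members and 3162 of the 3932 rows were under 50%.

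**Figure D2:**
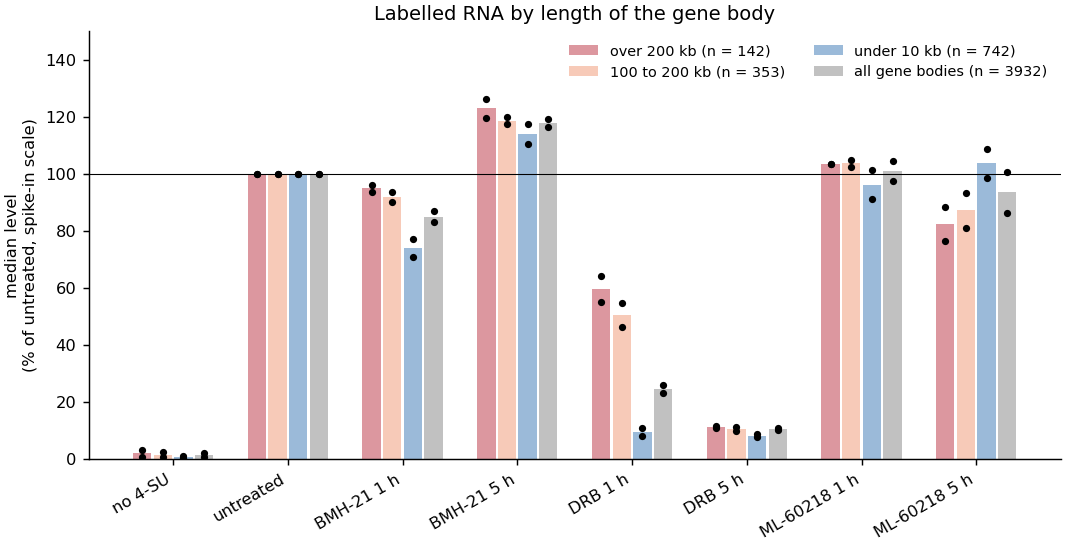
Median level in percent of untreated (spike-in scale) by length of the gene body in the 8 groups. Bars are the mean of 2 library medians and points the libraries; after 1 h of DRB gene bodies over 200 kb stand at 59.7% and those under 10 kb at 9.64%, and after 5 h all classes lie between 8.30% and 11.3%.

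At the level of single genes, limma called 85 of 218 members tested lower and 2 higher after 1 h of DRB on the spike-in scale. Over all rows tested, 67.7% were lower and 1.32% higher, and the median log2 difference was -0.56 for members against -1.49 for all rows. Relative to typical mRNA, on which the all-row median moves to -0.15, 93 members were higher and 2 lower, where 15.3% of all rows were higher and 28.6% lower. The spike-in count fell to 42 calls without the first DRB 1 h library and to 43 without the second untreated library. The 2 members called higher were PAPPA2, a protease of IGF-binding proteins, and the uncharacterised RP11-146I2.1, with 27 and 75.5 untreated tags pooled.

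The largest falls after 1 h are given gene by gene. EFNA5, which encodes the ephrin-A5 ligand of Eph receptors, held 1034.5 and 1602.5 tags in untreated cells and 147 and 170 after 1 h of DRB. Its levels were 26.1% and 22.1%, far below the median member, and its log2 difference was -2.05 ± 0.20 (SE, limma adjusted p = 2.12e-07). That both DRB libraries lay under both untreated ones is a condition of the naming rule. MEI4, a factor of meiotic DNA break formation, had levels of 17.2% and 21.6%, and LRFN5, a synaptic adhesion protein, 27% and 24.3%. ARSB, the lysosomal arylsulfatase B, had 23.6% and 29.7%, and ATXN7L1 31.3% and 31.1%. The log2 differences of these 4 genes ran from -2.26 for MEI4 to -1.67 for ATXN7L1, and 1 uncharacterised locus, AC079807.4, was lower still at -2.34. The 2 members lower also relative to typical mRNA were EFNA5 (-0.46 ± 0.17, limma adjusted p = 0.0449) and AC079807.4 (-0.86 ± 0.24, limma adjusted p = 0.0132).

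Other members stood closer to their untreated level at 1 h, or above it. MAST2, a microtubule-associated kinase, stood at 112% and 105% of untreated with 332 and 473.5 tags, and its log2 difference of 0.11 ± 0.27 did not pass (limma adjusted p = 0.73). GABRB1, a GABA-A receptor subunit, stood at 138% and 195% from 61.5 and 119 tags, with a log2 difference of 0.70 ± 0.43 (limma adjusted p = 0.17, edgeR 0.0273). Both were chosen after their values were seen, as the members with at least 200 untreated tags and the highest levels. ZMIZ1 was at 93.9% and 83.6%, and STK39, the kinase SPAK that acts on ion cotransporters, at 76.0% and 78.7%.

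By function, the members on the lists of genes chosen for this work gave the following counts after 1 h of DRB, each on the spike-in scale and with none called higher by limma. Among 10 neuronal adhesion and guidance genes, 5 fell and the median log2 difference was -0.52; EPHA6 stood at 25.9% and 48.0% and EPHA3, a further ephrin receptor, at 58.6% and 65.8%. Of 7 transcription factor and coactivator genes 5 fell, with a median of -1.06, among them DACH1, a developmental repressor (29.9% and 33.9%), RUNX1, a blood transcription factor (40.6% and 29.2%), and ETV6 (46.3% and 65.0%). Of 12 kinase genes 6 fell, with a median of -0.64, among them DCLK1, a microtubule-binding kinase (37.2% and 53.5%), PAK3 (37.5% and 41.9%) and CAMK2D (60.9% and 68.3%). Both chromatin regulator genes fell: ATRX, a chromatin remodeller, to 36.4% and 52.5% and TBL1X to 42.6% and 44.5%. Of 9 polarity, scaffold and traffic genes 5 fell, among them PDLIM5 (29.7% and 56.3%), CLASP2 (48.4% and 59.3%) and PARD3B (64.9% and 63.1%). Of 8 channel and receptor genes 3 fell, among them the glutamate receptor subunit GRIK2 (58.7% and 54.1%), the GABA-A subunit GABRB2 (31.9% and 66.4%) and the sodium leak channel NALCN (27.4% and 36.5%, on 20 and 28.5 untreated tags). Of 4 regulators of small GTPases 1 fell, VAV2 (57.3% and 59.1%), while RALGAPA2 (66.0% and 70.0%) and SRGAP2 (80.2% and 82.4%), whose reads can be shared with its near-identical copies, did not pass. PTPN13, a tyrosine phosphatase, fell to 39.0% and 60.4%, and PTPN4 at 81.9% and 81.3% did not pass; PDE3B, a cyclic AMP phosphodiesterase, fell to 42.0% and 54.6%. The RNA helicase DDX10 (64.3% and 82.5%) and the fragile-site gene ESRRG (78.8% and 86.3%) did not pass. Relative to typical mRNA the log2 difference turned positive for 22 of the genes named here. With 67.7% of all rows called lower, no list's share was read as particular to it, and no cadherin or catenin gene was among the members.

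After 5 h of DRB most long gene bodies with 50 tags stood far below their untreated level. The median level was 11.3% ± 0.3 of untreated (SD, n = 2), against 10.6% ± 0.7 for all gene bodies and 8.30% ± 0.76 under 10 kb. The order of members and all rows depended on the tag minimum, with 15.1% against 11% from 20 tags and 7.44% against 10.2% from 200 tags. Relative to typical mRNA the members' median was 66.45%. On the spike-in scale limma called 118 of 218 members lower and 24 higher, where 75.7% of all rows tested were lower and 7.54% higher. With typical mRNA as the reference 101 were higher and 76 lower, with 25.6% of all rows higher and 39.1% lower. Among the 142 members with 50 tags 116 were lower, where 95.1% of all rows with 50 tags were lower. Of the 142, 126 were below untreated in both libraries and 58 were below 10% in both. Of all 3932 gene bodies with 50 tags, 3826 were below untreated in both. By the mean of both libraries, 87 of the 142 members and 2970 of the 3932 rows were under 20%.

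COL19A1, a fibril-associated collagen chain, held 395 and 525.5 tags in untreated cells and 1 and 3 after 5 h of DRB. Its pooled level was 1.63% of untreated with an exact 95% Poisson interval of 0.443% to 4.16%, which covers the counting error of the DRB tags only. The log2 difference was -5.56 ± 0.34 (SE, limma adjusted p = 6.81e-10), the largest fall among members the naming rule takes. NFIB, a developmental transcription factor, went from 789 and 1262 tags to 5 and 8 (1.75% and 3.24%, log2 difference -5.23 ± 0.29). PDE3B was at 4.10% and 1.86%, STK39 at 3.37% and 2.93%, and RALGAPA2, the catalytic subunit of a Ral GTPase-activating complex, at 3.49% and 3.51%. CSRNP3 was left with 1 and 0 tags, a pooled level of 1.72% with a counting interval of 0.0436% to 9.59%. Without 4-SU the median member with 50 tags stood at 2.1% of untreated. The levels of these genes lie near that value and rest on few tags, which limits how far the falls can be sized or ordered. That their DRB 5 h and untreated libraries did not overlap is a condition of the naming rule.

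The lists differed in their counts at 5 h, where 75.7% of all rows were lower and 7.54% higher, and no test compared them. All 4 GTPase regulators fell (median log2 difference -3.38), as did 10 of 12 kinase genes (-3.20), 6 of 7 transcription factor genes (-3.06) and 7 of 9 polarity, scaffold and traffic genes (-3.10), in which 2 members were higher. Of 10 adhesion and guidance genes 5 fell (-1.16), among them EPHA3 (5.04% and 4.76%), LRFN5 (3.81% and 12.5%) and EPHB1 (15.0% and 33.8%). Of 8 channel and receptor genes 3 fell (-0.54), among them GRIK2 (15.4% and 12.1%), GABRB2 (5.98% and 3.70%) and KCNH5 (7.21% and 37.5%). PTPN4 (3.71% and 5.94%), PTPN13 (5.18% and 8.07%), DDX10 (6.15% and 7.43%), ATRX (8.55% and 8.94%), ESRRG (24.8% and 38.9%) and ZEB1, a repressor of epithelial genes (2.01% and 7.51%), also fell. DACH1 (6.48% and 7.06%), SRGAP2 (8.78% and 7.60%), VAV2 (11.3% and 11.4%), DCLK1 (8.29% and 7.01%), TNS3 (7.86% and 6.14%), MAGI3, a junction scaffold (8.79% and 9.01%), and EPB41L2, a membrane skeleton protein (14.4% and 11.7%), did so too. TBL1X reached 11.8% and 7.02%. PTPRO, on 5 and 4 untreated tags, did not pass at either time (limma adjusted p = 0.082 at 1 h and 0.10 at 5 h).

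The level after 5 h was higher in the longest members, which were also the sparsest. Members of 200 to 300 kb stood at 8.94% ± 0.06, those of 300 to 400 kb at 13.2% ± 5.4 and those over 400 kb at 43.4% ± 6.4 (SD, n = 2). The median untreated density of these classes was 3.36, 2.31 and 0.371 tags per kb, and the median level without 4-SU was 0.747% and 2.87%, 0.907% and 3.31%, and 1.61% and 13.7% in the 2 libraries. Restricted to the 80 members with at least 2 untreated tags per kb, a split chosen after the values were seen, the medians were 7.37% at 200 to 300 kb (56 members), 6.58% at 300 to 400 kb (19) and 6.77% over 400 kb (5). Below 2 tags per kb they were 27.5% (30 members), 73.2% (16) and 58.6% (16). Across all 142, Spearman's rank correlation of the DRB 5 h level was -0.657 with untreated density and 0.232 with span, and that of the level without 4-SU and density was -0.939. These correlations are across genes of the same libraries, and the untreated tags enter both the level and the density. The part of density in the level was not tested.

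**Figure D3:**
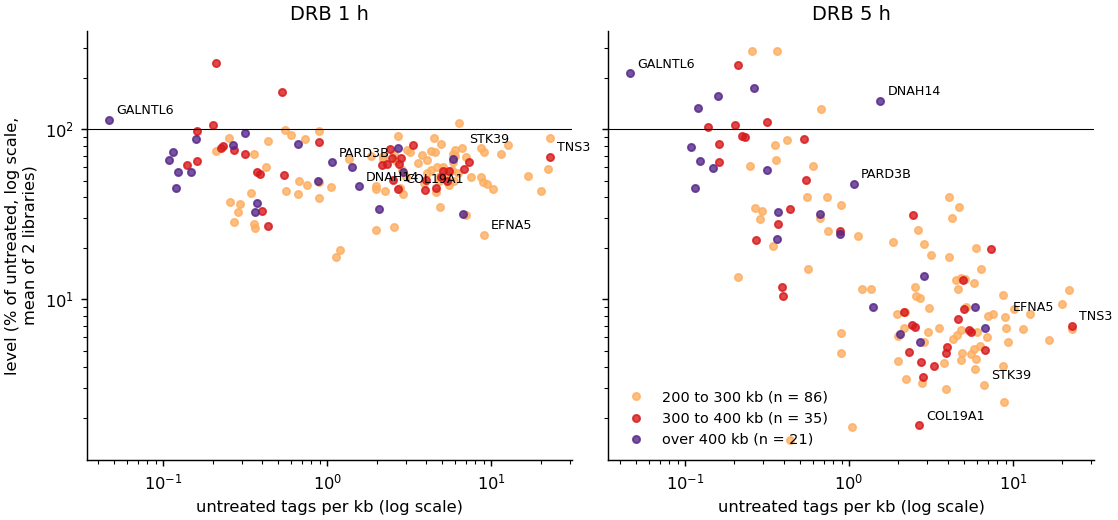
Level in percent of untreated (mean of 2 libraries, log axis) against untreated tags per kb (log axis) for the 142 members with at least 50 untreated tags, after 1 h and 5 h of DRB, coloured by span. At 1 h the level does not order with density (Spearman's rank correlation -0.0657), and at 5 h members with few tags per kb sit highest, with a rank correlation of -0.657.

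The 24 members called higher after 5 h of DRB were sparse. They held 3 to 90.5 untreated tags pooled, with a median of 16.25, and 21 held under 50. Their median density was 28 and 18.4 normalised tags per Mb in the DRB 5 h libraries and 5.79 and 27.9 in the no 4-SU libraries, and 7 of the 24 exceeded the no 4-SU density of the same number in both. By comparison, 118 members called lower had a median of 893.25 untreated tags. Their median density was 17.7 and 23.7 in the DRB 5 h libraries and 21.1 and 45.7 in the no 4-SU libraries. Of these 118, 20 exceeded the no 4-SU density of the same number in both. In the first libraries 23 of the 24 and 55 of the 118 exceeded it, and in the second 7 and 21. These densities are before spike-in scaling, while the calls are on the spike-in scale. The comparison therefore does not place either set against the unlabelled level on the scale of the calls. The filter on low rows scaled its minimum to library size, so few tags sufficed in the small DRB 5 h libraries. Sparse members could thus enter the test through the group in which they were high, and such calls are no evidence of a rise. Examples, chosen after their values were seen, were THEMIS, NEB and SH3GL2. THEMIS, a T-cell signalling protein, entered in that way, with 12.5 untreated tags pooled and 26 and 17 after DRB. NEB, the giant muscle protein nebulin, held 90.5 untreated tags and 49.5 and 24.5 after DRB (log2 difference 1.48 ± 0.51, limma adjusted p = 0.013). The NEB row overlaps RIF1, and tags were counted without strand. SH3GL2, an endophilin of synaptic vesicles, stood at 55.5 untreated tags against 21.5 and 19 (1.43 ± 0.47, adjusted p = 0.00956).

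The 5 h libraries were also tested against the 1 h libraries of DRB, which asks how far label was lost in between. limma called 102 of 218 members lower at 5 h and 31 higher, where 38.6% of all rows tested were lower and 13.1% higher. With typical mRNA as the reference 84 were lower and 70 higher, with 26.1% of all rows lower and 32.6% higher. The median log2 difference was -0.65 for members and -0.50 for all rows, and -2.14 against -0.82 among those with 50 tags. Among members with 50 tags, 70 of 86 of 200 to 300 kb fell further, 23 of 35 of 300 to 400 kb and 8 of 21 over 400 kb, the class with the lowest density, where 49.2% of all rows with 50 tags were lower.

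STK39 went from 305 and 461.5 tags at 1 h to 9 and 7 at 5 h, or from 76.0% and 78.7% to 3.37% and 2.93% of untreated (log2 difference -4.50 ± 0.22, limma adjusted p = 2.43e-09). COL19A1 fell by 4.36 on the log2 scale from levels of 33% and 56.4%. NBAS, a factor of Golgi-to-ER transport, fell by 4.22 from 81.1% and 80.5% to 5.21% and 2.90%. BBX, an HMG-box protein, fell by 4.18 from 76.7% and 78.5% to 3.85% and 4.26%. NFIB fell by 4.17 and RALGAPA2 by 4.05. All 6 were under 6% at 5 h in both libraries.

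DNAH14, an axonemal dynein heavy chain of 470 kb, was the member the naming rule takes that rose between 1 h and 5 h. It held 294 and 433.5 tags in untreated cells, 49.5 and 128 after 1 h of DRB and 183 and 104 after 5 h, or 30.9% and 61.4% and then 172% and 123% of untreated. The log2 difference between 5 h and 1 h was 1.72 ± 0.29 (limma adjusted p = 0.000109), and that between 5 h and untreated was 0.53 ± 0.29 (adjusted p = 0.0951, and 0.0342 by edgeR's quasi-likelihood test). Without spike-in scaling its density was 205 and 157 normalised tags per Mb at 5 h, 47.2 and 77.4 at 1 h, 136 and 137 in untreated cells and 23.8 and 39.8 without 4-SU. Its 5 h libraries lay above those of all these groups.

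The longest members with 50 tags were GALNTL6, PARD3B, EPHA6, ATRNL1 and LINGO2. PARD3B, at 1074 kb, held 432.5 and 712.5 untreated tags, 153 and 216 after 1 h of DRB and 75 and 66.5 after 5 h. Its level was 64.9% and 63.1% at 1 h and 47.9% and 47.7% at 5 h, with 0.894% and 4.47% without 4-SU. The fall passed at both times (-0.64 ± 0.22, limma adjusted p = 0.0155, and -1.06 ± 0.22, adjusted p = 0.000274). EPHA6, at 935 kb, was at 25.9% and 48.0% at 1 h and 30.3% and 35% at 5 h, and both falls passed, while ATRNL1 and LINGO2 did not pass with limma at either time. ATRNL1 held 11 and 8 tags at 5 h and LINGO2 9 and 6. GALNTL6, of the GalNAc-transferase family, had 23 and 34 untreated tags and stood at 112% and 116% at 1 h and 120% and 308% at 5 h (limma adjusted p = 0.0554); its second no 4-SU library stood at 109.9% of untreated. Under BMH-21 and ML-60218 PARD3B stayed between 74.0% and 115% and EPHA6 between 60.9% and 150%. GALNTL6 lay between 93.6% and 156%, ATRNL1 between 69.1% and 184% and LINGO2 between 49.2% and 116%.

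**Figure D4:**
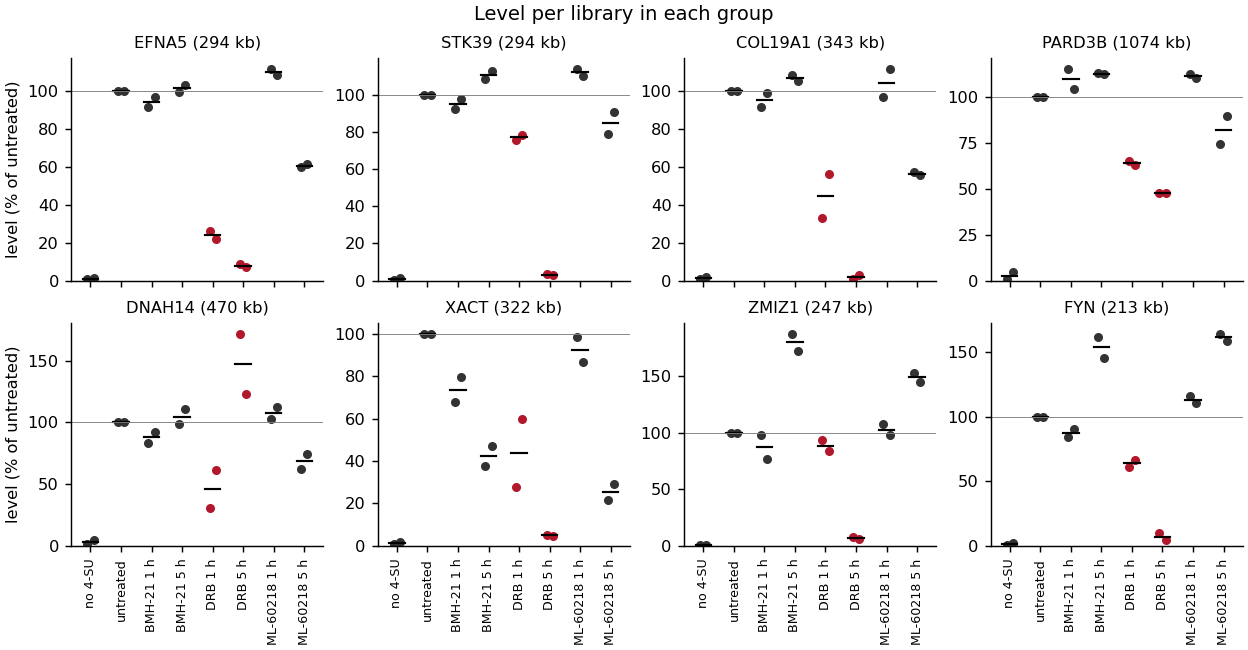
Level per library in percent of untreated (linear axes starting at 0, points; short lines are means) for 8 members in the 8 groups, DRB in red. EFNA5 is at 26.1% and 22.1% already at 1 h of DRB, STK39 and COL19A1 reach under 4% at 5 h, PARD3B stands at 47.9% and 47.7% and DNAH14 at 172% and 123%, while XACT is at 21.6% and 29.2% and FYN at 164% and 159% after 5 h of ML-60218.

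BMH-21 tested whether inhibiting RNA polymerase I altered long gene bodies. The median level was 94.9% ± 1.8 of untreated after 1 h and 123% ± 4.7 after 5 h (SD, n = 2), against 85.0% and 118% for all gene bodies. Relative to typical mRNA the members' median was 110.3% at 1 h, on the other side of untreated, and 105% at 5 h. Gene bodies under 10 kb stood at 74.0% ± 4.4 after 1 h and 114% ± 4.9 after 5 h, so at 1 h the libraries of these length classes did not overlap. On the scale of typical mRNA, used for the tests from here on, limma called none of 218 members at 1 h, at 5 h or between them (8, 17 and 14 had an unadjusted p under 0.05), and 0, 0 and 0.0181% of all rows were called. On the recovered tags, the quasi-likelihood test of edgeR called 3 members higher and none lower at 1 h, where it called 2.58% of all rows higher and 5.37% lower. It called 3 higher and 6 lower at 5 h (1.59% and 1.75% of all rows), and 6 higher and 22 lower at 5 h against 1 h (10.5% and 7.86%). The genes named next rest on edgeR, and none passed with limma.

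At 1 h these were NTRK2, the receptor of BDNF, UNC13C, a synaptic vesicle priming factor, and TUSC3, an oligosaccharyltransferase subunit. NTRK2 held 6 and 20 untreated tags and 175.5 and 35.5 after BMH-21 (log2 difference 1.42 ± 0.66, edgeR adjusted p = 0.0244). The libraries differ in depth, with 1028085.5 and 1678769.5 gene-body tags untreated and 6059928.5 and 1376449.5 after BMH-21. Without 4-SU the NTRK2 row held 21 and 39 tags. Per library total, before spike-in scaling, that was above untreated in both numbers, so the row lies near the unlabelled background. UNC13C stood at 139% and 157% and TUSC3 at 133% and 113% of untreated. By 5 h NTRK2 held 35.5 and 8.5 tags, and it was among the falls between the times (-1.67 ± 0.66, edgeR adjusted p = 0.00139).

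At 5 h XACT, a noncoding RNA of the X chromosome known from human pluripotent cells, had the largest fall. It held 553.5 and 709 untreated tags, 2611 and 533 after 1 h and 526 and 408.5 after 5 h of BMH-21, or 67.6% and 79.7% and then 37.8% and 46.8%. The log2 difference at 5 h was -1.47 ± 0.25 (edgeR adjusted p = 9.73e-06, limma 0.21). ZMAT4, a zinc-finger protein, stood at 43.2% and 47.0%, GABRB1 at 62.7% and 54.1%, VAV2 at 77.8% and 80.5% and DCLK1 at 77.8% and 85.5%. Higher at 5 h were SSBP2 at 209% and 174%, FBXL17, an F-box protein, at 154% and 169% and CSRNP3 at 252% and 151%. Against the 1 h libraries, PAK3, GLRA2, ZMIZ1, CSRNP3, ROR2 and ZEB1 were higher, with log2 differences from 0.44 (ZEB1) to 0.90 (PAK3). ZMAT4 (-1.5), XACT (-1.23), NXPH1 (-1.02), ABLIM1 (-1.0) and the uncharacterised RP11-125O18.1 (-1.11) were lower.

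After 1 h of ML-60218 no member passed with either limma or edgeR (3 and 6 had an unadjusted p under 0.05; 0 and 0.0542% of all rows were called). The median level was 103.5% ± 0.1, against 101% for all gene bodies. After 5 h it was 82.5% ± 8.5 (76.5% and 88.5%), against 93.5% ± 10.3 for all gene bodies, 87.2% ± 8.7 for those of 100 to 200 kb and 104% ± 7 for those under 10 kb. The spread between the libraries was as large as the difference between members and all rows, but in each library the order of the classes was the same, members lowest and gene bodies under 10 kb highest. Both libraries were below untreated for 101 of 142 members, against 1749 of all 3932 gene bodies with 50 tags. limma called no member at 5 h (21 with an unadjusted p under 0.05; 0 of all rows), and edgeR called 4 higher and 11 lower, where 4.18% of all rows were higher and 2.3% lower. The median log2 difference was -0.20 for members and -0.01 for all rows.

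XACT fell furthest here too, from 553.5 and 709 untreated tags and 282.5 and 186 at 1 h to 128 and 94.5 at 5 h, or 21.6% and 29.2% of untreated. The log2 difference was -1.87 ± 0.25 (edgeR adjusted p = 1.60e-06, limma 0.076). The XACT row starts 320.1 kb upstream of the RefSeq start of that name and spans 321.9 kb, so most of the row lies upstream of that start. Against the 1 h libraries it was the member that limma called (-1.71 ± 0.25, adjusted p = 0.0449), where 0.163% of all rows were called and 0.0904% were lower. The call was lost on leaving out any of the 4 libraries compared, with the replicate number as a block and with no filter on low values. The other falls at 5 h called by edgeR included ABLIM1, an actin-binding LIM protein (43.9% and 66.0%), UGGT2, a folding sensor of glycoproteins (55.9% and 56.8%), COL19A1 (57.1% and 55.5%), DDX10 (54.3% and 67.0%), EFNA5 (59.9% and 61.3%), GRIK2 (64% and 66.2%) and DCLK1 (59.1% and 72.5%). Their log2 differences ran from -0.79 for ABLIM1 to -0.51 for DCLK1.

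The rises were FYN, a Src-family kinase, at 164% and 159% with 457 and 359.5 tags (log2 difference 0.78 ± 0.25, edgeR adjusted p = 0.00254), PAK3 at 150% and 168%, ZMIZ1 at 153% and 145% and PRR16 at 135% and 140%. PAK3 and FYN were the kinases called higher among 12 in the list and DCLK1 the one called lower. Of the lists, 1 of 8 channel and receptor genes (GRIK2) and the single RNA-binding protein gene (DDX10) were called lower by edgeR, and no member of the remaining lists was called. Values of the listed genes named by the rule that did not pass ran from -0.50 for CREB5, on 19.5 and 17.5 untreated tags, to 0.25 for EPHB1. Against the 1 h libraries edgeR called 5 members higher and 16 lower, where 8.03% of all rows were higher and 3.98% lower. PAK3 (1.33), ZMIZ1 (0.68), PRR16 (0.67) and FYN (0.65) were again higher, and ABLIM1 (-1.10), MEI4 (-0.81), COL19A1 (-0.73) and EFNA5 (-0.72) were lower.

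The densest members followed no common course under these inhibitors. ZMIZ1 stood at 188% and 173% after 5 h of BMH-21 (edgeR adjusted p = 0.0513 against untreated) and 153% and 145% after 5 h of ML-60218. VAV2 stood at 64.6% and 65.0% after 1 h of BMH-21 and TNS3 at 72.5% and 86.3% after 5 h of ML-60218. TBL1X and GRB10 stayed between 80.7% and 117% in all BMH-21 and ML-60218 libraries. Of the nearest rows on either side of the length threshold with 50 untreated tags, FUT9 (199.6 kb) stood at 46.9% after 1 h and 4.91% after 5 h of DRB and MAP3K13 (199.5 kb) at 46.7% and 35.8%. Just inside, SCAI (201 kb) stood at 57.9% and 30.2% and RTTN (202 kb) at 52.8% and 4.39%.

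Annotation limits how far single rows can be read. No row of the table overlaps another, but 170 of the 232 members overlap a further RefSeq gene, 14 of them a protein-coding one.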

How the data were processed

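The values analysed were tags per gene body in 16 libraries, deposited by the authors as signal scaled to 10000000 tags per library, and per the file headers counted with HOMER without a strand option. The submitters' processing notes name STAR 2.7.7a, Trim Galore 0.6.5, GRCh38 and the yeast genome R64. The ratio columns deposited by the authors carry a spike-in scaling, from which a factor per library relative to the untreated library of the same number was read. All 91771 values under 200 tags were multiples of 0.5 tag within 0.005 deposited units, so tags were recovered.

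Tests used limma 3.58.1 with a trend on log2(value + 0.5) after filterByExpr (minimum 10), with Benjamini-Hochberg adjustment over all rows tested and a threshold of 0.05. That minimum is scaled to library size, so fewer tags pass in smaller libraries. The fit held 14 labelled libraries, or 16 for no 4-SU. DRB and no 4-SU were tested on the spike-in scale, and BMH-21 and ML-60218 relative to typical mRNA (gene-body sum with TMM factors). edgeR 4.0.16 and DESeq2 1.42.0 on recovered tags were alternatives, the latter with its own library scaling factors in every comparison. Fold changes on the log2(value + 0.5) scale understate changes of low rows. Scripts were tested on simulated data.

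Named genes were the 6 largest rises and falls among members past the threshold with at least 50 mean tags and groups that did not overlap (by edgeR where limma called under 3), the 5 longest and 5 densest members with 50 untreated tags, and up to 3 members per list with the smallest adjusted p. Uncharacterised loci were counted. The members and lists were chosen with earlier results of these data known. Intervals cover counting error only, since tags carry no molecular identifiers. A few marker and overlap results are not reported here.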

Additional observations from a re-analysis of the deposited data

Results flagged for a closer look

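The difference between 5 h and 1 h of DRB, tested directly, was called for 133 members. The named genes with such a difference were DNAH14, higher at 5 h by a log2 difference of 1.72, and STK39 (-4.50), COL19A1 (-4.36), NBAS (-4.22), BBX (-4.18), NFIB (-4.17) and RALGAPA2 (-4.05), all lower at 5 h. The same test between 5 h and 1 h of ML-60218 called 1 member, XACT, with a log2 difference of -1.71 (limma adjusted p = 0.0449). With 2 libraries a group, no library was tested for standing apart from its group.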

How the results depend on the processing

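Depth limits most values: 90 of 232 members held under 50 untreated tags, and the DRB 5 h libraries held 2872 and 2347.5 member tags. Of 1505 alternative values for 137 named changes, 1299 kept direction and side of the threshold, 142 passed only under the alternative, 37 no longer passed and 27 changed sign. Of the sign changes, 22 at DRB 1 h and 2 at DRB 5 h came on the scale of typical mRNA. The others were at ML-60218 5 h, on the spike-in scale or on leaving out a library. The cause of the other shifts was not tested. Members called ran, over leaving out each library in turn, from 138 to 185 for no 4-SU, 42 to 92 for DRB 1 h, 130 to 145 for DRB 5 h, 119 to 136 for DRB 5 h against 1 h and 0 to 0 for all BMH-21 and ML-60218 comparisons. Counts moved by over 1.5 times for DRB 1 h were 42 without the first DRB 1 h library, 43 without the second untreated library and 145 with DESeq2. DESeq2 used its own library scaling factors in place of the spike-in scale. The 145 and the spike-in calls are therefore on unlike scales, and its split by direction is not given here. edgeR gave 3, 9 and 28 for BMH-21 at 1 h, 5 h and between them, and 15 and 21 for ML-60218 at 5 h and against 1 h. DESeq2 gave 11, 18, 32, 21 and 34 for the same comparisons. Fitting only the 4 libraries compared gave 5, 15, 30, 30 and 29, and a variance per group 10, 16, 33, 25 and 25. For ML-60218 5 h the spike-in scale and a pseudocount of 2 gave 1 each, and for 5 h against 1 h no filter gave 0.

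Same-numbered libraries deviated together with correlations from -0.0562 to 0.0567 in the DRB and no 4-SU comparisons. The BMH-21 and ML-60218 comparisons gave 0.131 to 0.399. No main test used pairing. The replicate number was used as a block with limma only, so the edgeR calls for BMH-21 and ML-60218 take no account of it. With the replicate number as a block the counts were 157 for no 4-SU, 100 for DRB 1 h, 146 for DRB 5 h, 136 for DRB 5 h against 1 h and 0 for every BMH-21 and ML-60218 comparison, XACT included.

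Median levels relative to typical mRNA were 105.6% (no 4-SU), 110.3% (BMH-21 1 h), 105% (BMH-21 5 h), 184.1% (DRB 1 h), 66.45% (DRB 5 h) and 100.9% (ML-60218 1 h). The DRB 5 h median was 15.12% from 20 tags, 7.445% from 200 tags and 10.95% without members overlapping another protein-coding gene, an alternative chosen after seeing the data. The ML-60218 1 h median was 103.9% from 20 tags, 103.6% from 200 tags and 103.9% as a ratio of group means. Single libraries gave medians of 0.8626% to 3.268% (no 4-SU), 93.69% to 96.19% and 119.7% to 126.4% (BMH-21 1 h and 5 h), 55.26% to 64.19% and 11.1% to 11.53% (DRB), and 103.4% to 103.5% and 76.45% to 88.49% (ML-60218).

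On the typical-mRNA scale the DRB 1 h log2 difference turned positive for ESRRG (1.301), EPHA6 (0.08944), EPHA3 (0.902), PTPN13 (0.5484), PTPN4 (1.295), GRIK2 (0.765), GABRB2 (0.4634), PDE3B (0.5295), ATRX (0.3984), TBL1X (0.3947), DDX10 (1.134), RUNX1 (0.05569), ETV6 (0.7248), VAV2 (0.8132), RALGAPA2 (1.031), SRGAP2 (1.294), DCLK1 (0.4278), PAK3 (0.2527), CAMK2D (0.9589), PDLIM5 (0.3008), PARD3B (0.9458) and CLASP2 (0.6902), and the DRB 5 h one for ESRRG (0.7858) and EPHB1 (0.3295). For ML-60218 5 h, EPHA6 ranged from -0.5323 to 0.02354 over leaving out each library (positive without the first ML-60218 5 h library), and RALGAPA2 to -0.03431 on the spike-in scale and ranged from -0.02792 (without the first untreated library) to 0.1689.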
